A study of Homo sapiens with 6 samples.

Results

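The CXC chemokine genes CXCL1, CXCL2, CXCL3, CXCL5 and CXCL8, the CC chemokine genes CCL2 and CCL20 and the interleukin genes IL6, IL1A and IL1B were followed in UMUC3, an established human bladder cancer cell line. These 10 genes were chosen by name, through their Ensembl identifiers, among the 60605 genes of the deposited count table. The filter on low counts kept 6 of them and 14479 genes in all. Cells were infected with the lentiviral vector TIM-1-PLVX-IRES-zsgreen, which carries TIM-1, or with PLVX-IRES-Zsgreen, the same backbone without TIM-1, and both vectors carry the ZsGreen reporter. HAVCR1 is the gene of TIM-1, which binds phosphatidylserine on other cells. Each group held 3 RNA sequencing libraries, numbered 1 to 3 in both. Nothing in the labels tells separate cultures from repeat preparations, so each p-value covers the spread among these libraries, which may be technical. Expression from a vector in 1 cell line limits TIM-1 here as a model, and in bulk RNA fewer expressing cells and less RNA per cell cannot be told apart.

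Chemokines are small secreted proteins that guide leucocytes along a gradient through G protein-coupled receptors. CXCL1, CXCL2, CXCL3, CXCL5 and CXCL8 act on CXCR2 and attract neutrophils, CCL2 acts on CCR2 and attracts monocytes, and CCL20 acts on CCR6 of dendritic and T helper cells. Interleukin-1 alpha and beta, from IL1A and IL1B, signal through the IL-1 receptor to the transcription factor NF-kB, which drives transcription of the chemokine genes and of IL6. Many of these mRNAs are short-lived, because AU-rich letters in their 3' untranslated regions are bound by decay factors. Tristetraprolin, the product of ZFP36, is one such factor. Tumour cells, bladder cancer cells among them, can secrete these chemokines themselves.

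The upstream letters of the genes are shown because the silent chemokine gene CXCL5 shares the NF-kB-type letters GGAATTTCC with the expressed genes CXCL1, CXCL2, CXCL3 and CXCL8. RefSeq start sites on GRCh38.p14, the assembly of hg38, were found for 9 of the 10 genes, with none for CCL2. Each line gives 150 bases upstream, 5' to 3' in the direction of transcription, ending at the base before the start, with the letters GGNNTTTCC on either strand in capitals.
CXCL1: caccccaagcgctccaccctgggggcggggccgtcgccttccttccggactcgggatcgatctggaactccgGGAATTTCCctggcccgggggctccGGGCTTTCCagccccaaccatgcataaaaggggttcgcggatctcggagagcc
CXCL2: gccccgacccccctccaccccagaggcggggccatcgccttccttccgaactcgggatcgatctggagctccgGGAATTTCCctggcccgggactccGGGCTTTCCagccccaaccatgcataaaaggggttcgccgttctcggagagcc
CXCL3: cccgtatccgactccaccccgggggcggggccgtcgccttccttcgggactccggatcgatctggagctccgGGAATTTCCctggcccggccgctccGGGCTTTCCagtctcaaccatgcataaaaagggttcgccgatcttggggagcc
CXCL8: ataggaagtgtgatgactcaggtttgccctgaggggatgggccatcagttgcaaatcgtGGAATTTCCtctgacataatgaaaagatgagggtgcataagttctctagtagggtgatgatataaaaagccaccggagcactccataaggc
CCL20: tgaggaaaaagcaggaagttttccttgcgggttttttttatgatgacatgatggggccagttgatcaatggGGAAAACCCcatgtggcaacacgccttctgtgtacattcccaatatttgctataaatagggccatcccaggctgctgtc
CXCL5: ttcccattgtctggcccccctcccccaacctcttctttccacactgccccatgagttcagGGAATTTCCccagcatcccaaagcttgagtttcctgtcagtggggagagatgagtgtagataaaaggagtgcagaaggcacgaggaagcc
IL6: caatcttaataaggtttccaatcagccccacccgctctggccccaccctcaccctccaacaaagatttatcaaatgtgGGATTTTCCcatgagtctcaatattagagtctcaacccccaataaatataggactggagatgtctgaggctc
These stretches lie at chr4:73869243-73869392 (plus strand) for CXCL1, chr4:74099196-74099345 (minus strand) for CXCL2, chr4:74038690-74038839 (minus strand) for CXCL3 and chr4:73740419-73740568 (plus strand) for CXCL8. Those of CCL20, CXCL5 and IL6 lie at chr2:227813692-227813841 (plus strand), chr4:73998678-73998827 (minus strand) and chr7:22727050-22727199 (plus strand).

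In the 250 bases upstream of the start, GGNNTTTCC was found in 7 of the 9 genes, against 5.48% of 27305 RefSeq promoters and 5.79% of the 10431 promoters of tested genes. CXCL1, CXCL2 and CXCL3 held it at 2 places each, beginning 78, 77 and 78 bases before the start with GGAATTTCC and 53 bases before it with GGGCTTTCC. CXCL5 and CXCL8 held GGAATTTCC 90 and 91 bases before the start. IL6 held GGATTTTCC 72 bases before the start, and CCL20 had its match on the opposite strand. IL1A and IL1B had no match in this window. The AP-1 letters TGANTCA, the same on both strands, stood upstream of CXCL8 and IL1A (6.60% of all promoters), and TATAAA, searched on both strands, upstream of CXCL8, CCL20 and IL1A (11.1%). A match describes letters only, and binding was not measured.

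**Figure D1:**
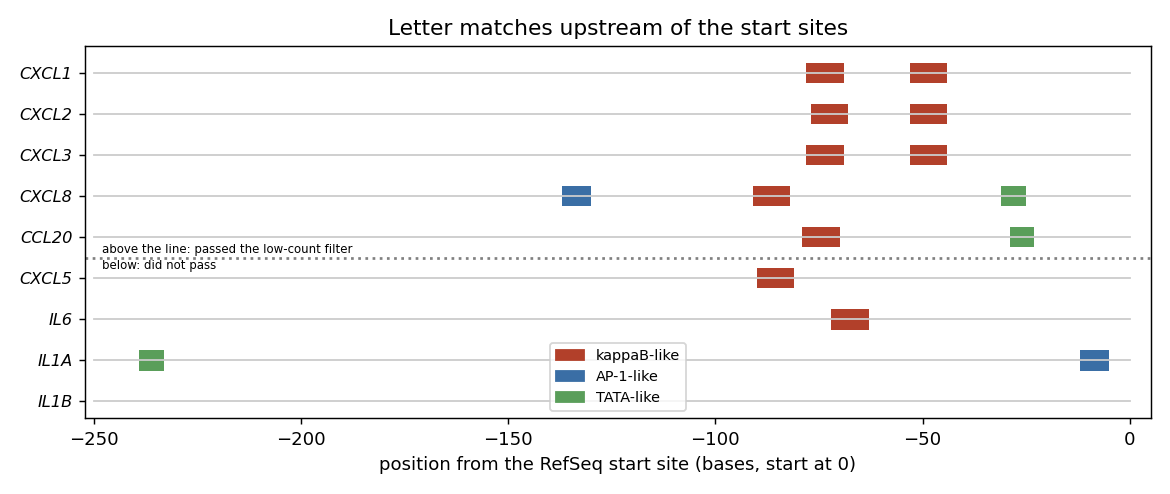
Letter matches in the 250 bases upstream of the RefSeq start sites of 9 genes, with the position from the start on the horizontal axis and coloured blocks for kappaB-like (GGNNTTTCC), AP-1-like (TGANTCA) and TATA-like (TATAAA) letters. CXCL1, CXCL2 and CXCL3 have 2 kappaB-like matches each, and CXCL5 and IL6, which did not pass the low-count filter, have 1 each.

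The 3' untranslated regions share letters as well, and these are shown because cytokine mRNA decay factors read such AU-rich runs. The letters TATTTAT (written with T, overlaps counted) occurred in 9 of the 10 genes, the exception being CCL2, against 31.8% of 11745 tested protein-coding genes. At least 3 copies were found in 8 of the 10 genes, against 5.74% of the tested protein-coding genes, with 8 copies in CXCL2, 4 each in CXCL1, CXCL8 and IL1B, 3 each in CXCL3, CXCL5, IL6 and IL1A, and 1 in CCL20. The 30 bases with most copies, from the GENCODE 29 transcripts, are given 5' to 3' with the copies in capitals.
CXCL2: agtcttcTATTTATTTATTTATTTATTTAT
CXCL1: ttaggagaagtcttcTATTTATTTATTTAT
CXCL8: tattaaccTATTTATTATTTATgTATTTAT
CXCL3: tacgagggttctactTATTTATgTATTTAT
IL1B: gagcaaccgcttcccTATTTATTTATTTAT
They lie at chr4:74097589-74097618 (minus strand) for CXCL2, chr4:73870666-73870695 (plus strand) for CXCL1, chr4:73743105-73743134 (plus strand) for CXCL8, chr4:74037089-74037118 (minus strand) for CXCL3 and chr2:112830002-112830031 (minus strand) for IL1B. In CXCL2, CXCL1 and IL1B the copies shown overlap in 1 uninterrupted run, and each of these genes has more outside the bases shown.

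UMUC3 cells expressed CXCL1, CXCL2 and CXCL8 at moderate levels, CCL2 at a lower level and CXCL3 and CCL20 at a low level, while CXCL5, IL6, IL1A and IL1B were at or near 0 in each library. Levels are given as CPM, counts scaled to the TMM-adjusted library size, and between genes as RPKM, the CPM per kilobase of the union of annotated exons. CXCL1 averaged 29.8 ± 21.0 RPKM in TIM-1 libraries and 38.4 ± 27.8 RPKM in empty-vector libraries (mean ± SD of 3 libraries each). CXCL2 averaged 25.5 ± 16.4 RPKM in TIM-1 libraries and 35.1 ± 21.9 RPKM in empty-vector libraries (mean ± SD of 3 libraries each). CXCL8, which encodes interleukin-8, averaged 16.1 ± 11.9 RPKM in TIM-1 cells and 16.7 ± 11.9 RPKM in empty-vector cells (mean ± SD of 3 libraries each). Most of this spread came from replicate 1, described below. CCL2 followed with 6.35 ± 4.18 RPKM in TIM-1 cells and 5.68 ± 3.29 RPKM with the empty vector, and CXCL3 with 1.53 ± 0.944 and 1.69 ± 0.877 RPKM in the same order (mean ± SD of 3 libraries each). CCL20 was lowest of the 6, at 0.990 ± 0.298 RPKM in TIM-1 cells and 1.12 ± 0.981 RPKM in empty-vector cells (mean ± SD of 3 libraries each).

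The order CXCL1, CXCL2, CXCL8, CCL2, CXCL3, CCL20 held in each of the 4 libraries of replicates 2 and 3. In both replicate 1 libraries CXCL2 stood above CXCL1, and in TIM-1 replicate 1 CCL20 stood above CXCL3. Over the 3 libraries of a group, the means of CXCL1 and CXCL2, of CXCL2 and CXCL8, of CXCL8 and CCL2, and of CXCL3 and CCL20 lay closer together than the larger of their SDs. Those of CCL2 and CXCL3 lay further apart than either SD in both groups. CXCL1, CXCL2 and CXCL3 are close relatives, and between 5.26% and 9.24% of the 50-base stretches of their transcripts also occur in another of the 3 genes, so a small part of their reads could have been assigned to a relative or left out. CXCL8, CCL2 and CCL20 shared no such stretch with another gene.

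The genes that did not pass the filter gave almost no reads. CXCL5 had a count of 0 in all 6 libraries, which allows up to 0.207, 0.186 and 0.162 CPM in the TIM-1 libraries of replicates 1, 2 and 3, against 0.188, 0.186 and 0.181 CPM in the matching empty-vector libraries (3 counts per library, counting error only). For IL6 the only read was in TIM-1 replicate 3, with a count of 0 in the other 2 TIM-1 libraries and in all 3 empty-vector libraries. IL1A had 1, 1 and 0 counts in the TIM-1 libraries of replicates 1, 2 and 3, against 0, 0 and 1 in the matching empty-vector libraries. IL1B had 1, 0 and 0 counts in the TIM-1 libraries of replicates 1, 2 and 3, against 0, 2 and 0 in the matching empty-vector libraries. No fold change is given for these genes, since both groups lie under the limit. The annotated span of IL6 overlaps STEAP1B and the antisense gene AC073072.1 on the opposite strand, and 22.4% of the 50-base stretches of its transcripts also occur in those of the antisense gene. The sources used here do not say whether the counting used strand, so IL6 reads could not be told from antisense reads.

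The CXC genes lie in 1 cluster on chromosome 4, where expressed and silent genes are interspersed. The 9 protein-coding genes from CXCL8 to CXCL2 span 359 kb of GRCh38. CXCL8 (73740506 to 73743716) and CXCL1 (73869393 to 73871242) lie on the plus strand, and CXCL5 (73995642 to 73998779), CXCL3 (74036589 to 74038807) and CXCL2 (74097035 to 74099293) on the minus strand. Between CXCL8 and CXCL1, CXCL6 had 6, 15 and 6 counts in the TIM-1 libraries of replicates 1, 2 and 3, against 13, 5 and 9 in the matching empty-vector libraries. The platelet chemokine genes PF4V1, PF4 and PPBP had a count of 0 in each library. CCL2 lies on chromosome 17 (34255218 to 34257203, plus strand) and CCL20 on chromosome 2 (227805739 to 227817564, plus strand). IL1A (112773915 to 112784590) and IL1B (112829751 to 112836903) neighbour each other on the minus strand of chromosome 2, and IL6 lies on chromosome 7 (22725884 to 22732002, plus strand).

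**Figure D2:**
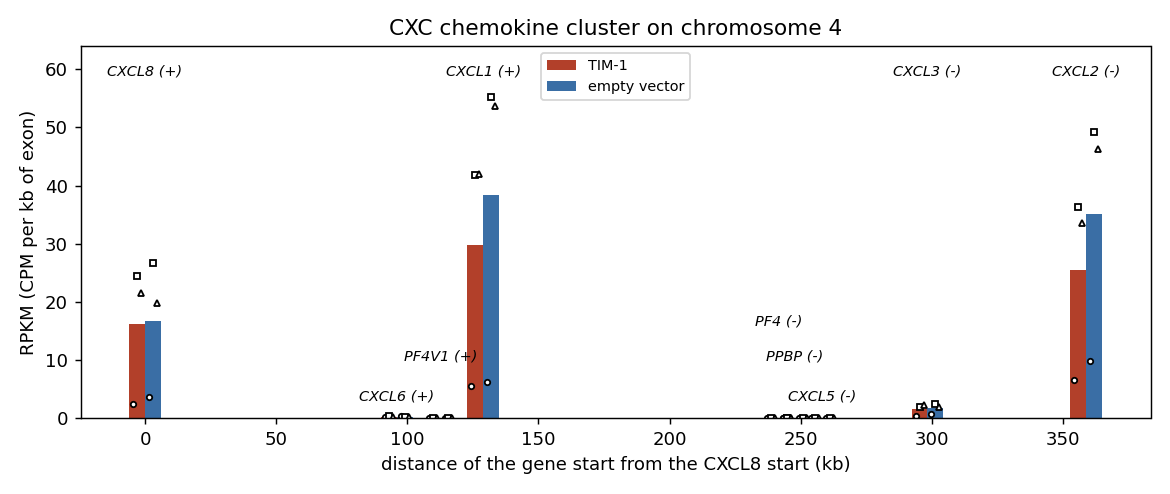
RPKM of the 9 protein-coding genes of the CXC chemokine cluster against the distance of each gene start from that of CXCL8, with bars for the mean of 3 libraries (TIM-1 left, empty vector right) and open circles, squares and triangles for replicates 1, 2 and 3. CXCL8, CXCL1 and CXCL2 stand out among genes at or near 0, and their replicate 1 circles lie far below their other symbols.

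CXCL2 and CXCL1 were 27.9% and 21.2% lower with TIM-1 when same-numbered libraries were taken as pairs, and no difference was called for CXCL3, CXCL8, CCL2 or CCL20. Without pairing, 0 of the 6 tested genes were called by edgeR, 0 had an unadjusted p under 0.05, and DESeq2 called 0 as well. Of all 14479 genes, edgeR called 0.0138%, and 5.49% had an unadjusted p under 0.05. DESeq2 called 0.17% of the 14701 genes it gave an adjusted p. HAVCR1 itself matched the labels, at 572 ± 73.0 CPM in TIM-1 libraries and 0.0835 ± 0.145 CPM in empty-vector libraries (mean ± SD of 3 libraries each). With the replicate number as a block, 2 of the 6 were called lower and 0 higher, where 5.01% of all tested genes were called, 1.79% lower and 3.22% higher. A block that set replicate 1 alone against the others called the same 2 genes, beside 3.52% of all tested genes, 1.12% in the lower direction. The members tested had a median log2 fold change of -0.13, beside 0.0001 over all tested genes, which describes them and is not a test. The groups overlapped for each of the 6, while 11.7% of all tested genes had groups that did not overlap.

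CXCL2, a neutrophil-attracting chemokine also known as MIP-2 alpha, had 9.93, 54.6 and 50.4 CPM in the TIM-1 libraries of replicates 1, 2 and 3, against 14.7, 73.7 and 69.3 CPM in the matching empty-vector libraries. Each TIM-1 library lay below the empty-vector library of the same number, while the groups as a whole overlapped because both replicate 1 libraries were low. CXCL2 was 27.9% lower in the paired fit (log2 fold change -0.47, SE 0.09, edgeR adjusted p = 0.000185). The call stayed without each pair in turn, with edgeR adjusted p between 0.000505 and 0.0225, and in DESeq2 with the block (adjusted p = 0.00470). Over the genes tested in each, the edgeR fits called 2.73% lower without pair 1, 0.389% without pair 2 and 0.918% without pair 3. DESeq2 with the block called 0.625% lower of the genes it gave an adjusted p. Leaving out a pair costs degrees of freedom yet can make a p smaller, so a call that stays is weak support. Without pairing CXCL2 came to a log2 fold change of -0.45 (SE 0.87, edgeR adjusted p = 0.960).

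CXCL1, its close relative, had 7.18, 54.2 and 54.5 CPM in the TIM-1 libraries of replicates 1, 2 and 3, against 8.14, 71.5 and 69.5 CPM in the matching empty-vector libraries. TIM-1 was the lower library in 3 of 3 pairs, and in replicates 2 and 3 both TIM-1 libraries lay below both empty-vector libraries. Over all tested genes, 19.1% were lower with TIM-1 in 3 of 3 pairs and 23.2% were lower without overlap in replicates 2 and 3. CXCL2 and CCL20 were also lower without overlap in replicates 2 and 3, and CCL2 was higher without overlap there. CXCL1 was 21.2% lower in the paired fit (log2 fold change -0.34, SE 0.09, edgeR adjusted p = 0.0123). That call was lost without pair 2 (edgeR adjusted p = 0.388), without pair 3 (0.0753) and in DESeq2 with the block (adjusted p = 0.165), and it was kept without pair 1 (edgeR adjusted p = 0.00362). Without pairing CXCL1 came to a log2 fold change of -0.36 (SE 1.06, edgeR adjusted p = 0.982).

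CXCL3, the third of these relatives, had 1.03, 4.15 and 5.02 CPM in the TIM-1 libraries of replicates 1, 2 and 3, against 1.57, 5.32 and 4.34 CPM in the matching empty-vector libraries. TIM-1 was lower in pairs 1 and 2 and higher in pair 3, and counts of 15 to 93 limit what can be detected. As a log2 fold change this came to -0.17 in the paired fit (SE 0.24, edgeR adjusted p = 0.773) and -0.12 in the unpaired fit (SE 0.58, edgeR adjusted p = 0.991).

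CXCL8 had 5.73, 55.6 and 48.8 CPM in the TIM-1 libraries of replicates 1, 2 and 3, against 8.14, 60.6 and 45.2 CPM in the matching empty-vector libraries. Within pairs its log2 ratio was -0.51 in pair 1, -0.12 in pair 2 and 0.11 in pair 3, so the direction was not shared. The fits gave log2 fold changes of -0.09 with pairing (SE 0.10, edgeR adjusted p = 0.680) and -0.04 without it (SE 1.04, edgeR adjusted p = 0.997).

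CCL2, the monocyte chemoattractant, had 3.04, 17.0 and 17.9 CPM in the TIM-1 libraries of replicates 1, 2 and 3, against 3.88, 16.3 and 13.7 CPM in the matching empty-vector libraries. It was lower with TIM-1 in pair 1 and higher in pairs 2 and 3. Its log2 fold change of 0.12 with pairing had an SE of 0.14 (edgeR adjusted p = 0.704), and that of 0.17 without pairing an SE of 0.79 (edgeR adjusted p = 0.990).

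CCL20 had counts of 15, 31 and 33 in the TIM-1 libraries of replicates 1, 2 and 3, against 0, 40 and 48 in the matching empty-vector libraries. Scaled to CPM, the TIM-1 libraries gave 1.03, 1.92 and 1.78, against 0, 2.47 and 2.90 in the empty-vector libraries. In pair 1 CCL20 came to 5.51-fold higher with TIM-1 when the count of 0 was taken as 3 counts. That value leaves out the counting error of the 15 counts in TIM-1 replicate 1. In pairs 2 and 3 the log2 ratio was -0.37 and -0.70, so 1 library at 0 set the direction. Pairing gave a log2 fold change of 0.018 (SE 0.50, edgeR adjusted p = 0.992), and leaving out pair 1 gave -0.54 (edgeR adjusted p = 0.377). Whether CXCL2 or CXCL1 differed in its TIM-1 change from CXCL3, CXCL8, CCL2 or CCL20 was not tested.

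**Figure D3:**
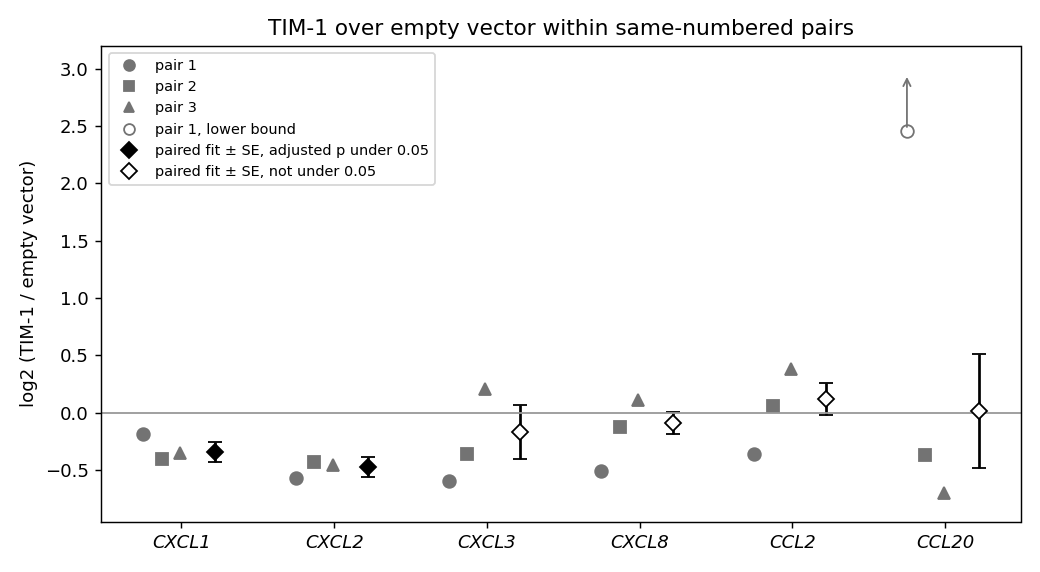
Log2 ratio of TIM-1 to empty vector for the 6 tested genes, with grey symbols for the 3 same-numbered pairs and black diamonds for the paired edgeR fit ± SE, filled where the adjusted p was under 0.05. CXCL1 and CXCL2 lie below 0 in all 3 pairs, and the other 4 genes lie on both sides. The open circle with an arrow, labelled lower bound, is CCL20 in pair 1 with the count of 0 taken as 3 counts.

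The larger difference in these genes lay between replicate 1 and replicates 2 and 3 of both groups. CXCL1 was 8.13-fold lower, CXCL8 7.55-fold, CXCL2 5.04-fold, CCL2 4.64-fold and CXCL3 3.60-fold lower in replicate 1 in a fit with the group as a term. The labels do not say what the number marks. Replicate 1 was singled out with these data in view, so its p-values and calls are not independent tests. The size is given by the log2 difference and its SE. The log2 differences were -3.02 for CXCL1 (SE 0.11, edgeR adjusted p = 6.06e-16), -2.92 for CXCL8 (SE 0.15, edgeR adjusted p = 1.32e-11) and -2.33 for CXCL2 (SE 0.10, edgeR adjusted p = 1.57e-14). Those of CCL2 and CXCL3 were -2.21 (SE 0.18, edgeR adjusted p = 1.10e-09) and -1.85 (SE 0.28, edgeR adjusted p = 2.46e-05). All 5 of these genes had at least 15 counts in each library, and their call stayed when any single library was left out.

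Replicate 1 was the lower in both groups. CXCL1 in replicate 1 stood at 13.2% of the mean of replicates 2 and 3 in TIM-1 libraries and at 11.6% in empty-vector libraries. CXCL8 stood at 11.0% in TIM-1 libraries and 15.4% in empty-vector libraries, and CXCL2 at 18.9% in TIM-1 libraries and 20.6% in empty-vector libraries. For CCL2 the shares were 17.4% in TIM-1 libraries and 25.9% in empty-vector libraries, and for CXCL3 22.6% in TIM-1 libraries and 32.4% in empty-vector libraries. Both replicate 1 libraries lay below all 4 others for each of the 6 tested genes, beside 20.4% of all tested genes. CCL20 stood at 56.0% in TIM-1 libraries and at a count of 0 in empty-vector replicate 1, and its log2 difference of -2.17 (edgeR adjusted p = 0.0181) was -0.83 without that library (edgeR adjusted p = 0.298). The CCL20 call was also lost without empty-vector replicate 3 (edgeR adjusted p = 0.0577).

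Of the 6 tested genes 6 were called lower in replicate 1, where 23.6% of all tested genes were called, 12% lower and 11.6% higher. DESeq2 called 5 of the 6, beside 19% of the genes it gave an adjusted p, with CCL20 at an adjusted p of 0.195. A called log2 difference of -2 or below was found for 0.256% of all tested genes, and for CXCL1, CXCL2, CXCL8, CCL2 and CCL20 among these 6. Between replicates 3 and 2, 0 of the 6 were called (edgeR), 1 had an unadjusted p under 0.05 and 0.0618% of all genes were called, with no DESeq2 fit of that contrast. The largest of these differences was that of CXCL8, with a log2 value of -0.30 (edgeR adjusted p = 0.239). The replicate 1 libraries also had the lowest total count of each group, 14312387 for TIM-1 and 15651864 for the empty vector, against 16139248 to 18605914 in the other 4. CPM corrects for the total, and the part of depth in the difference was not tested.

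The sum of the chemokine transcripts was lowest in replicate 1. CXCL2 made up the largest share in both replicate 1 libraries and also in empty-vector replicate 2. The 6 tested genes together gave 27.9, 187 and 178 CPM in the TIM-1 libraries of replicates 1, 2 and 3, against 36.5, 230 and 205 CPM in the matching empty-vector libraries. CXCL2 made up 35.6% of that sum in TIM-1 replicate 1 and 40.4% in empty-vector replicate 1, and between 28.3% and 33.8% in the other 4 libraries. CXCL1 made up 25.7% and 22.3% in TIM-1 and empty-vector replicate 1, and between 28.9% and 33.9% in the other 4 libraries. CXCL8 made up 20.5% in TIM-1 replicate 1 and 22.3% in empty-vector replicate 1, and between 22.1% and 29.7% elsewhere.

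**Figure D4:**
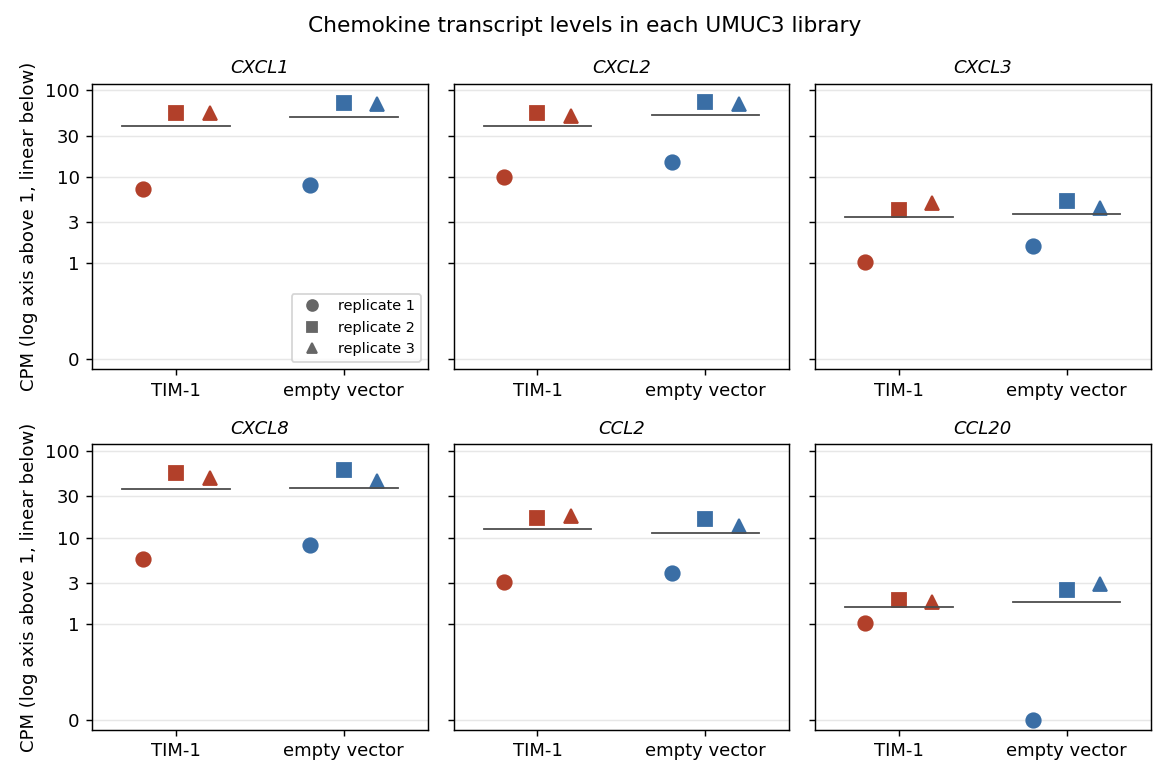
CPM of the 6 tested chemokine genes in each library (log axis above 1, linear below), TIM-1 left and empty vector right, with circles, squares and triangles for replicates 1, 2 and 3 and a line at the group mean. The circles of replicate 1 lie below the squares and triangles in both groups, by least for CCL20 with TIM-1 (1.03 against 1.92 and 1.78 CPM). The circle of CCL20 in the empty vector is at 0.

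Whether TIM-1 acted differently in pair 1 than in pairs 2 and 3 was tested as an interaction, in which 0 of the 6 genes and 0 of 14479 genes were called by edgeR. An unadjusted p under 0.05 was reached by 779 genes (5.38%), CCL20 among them. DESeq2 called 2 of the 28529 genes it gave an adjusted p (0.00701%), none of these 6. The interaction on the log2 scale was 0.19 (SE 0.22) for CXCL1, -0.12 (SE 0.20) for CXCL2, -0.52 (SE 0.57) for CXCL3, -0.49 (SE 0.31) for CXCL8 and -0.57 (SE 0.35) for CCL2, with edgeR adjusted p between 0.877 and 0.956. For CCL20 the edgeR adjusted p was 0.742, and without empty-vector replicate 2 it was 0.0110. Pair 1 has 1 library per group, which is assumed to vary like the others.

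Neighbours of the chemokines in the NF-kB pathway were counted from lists chosen by function, with earlier results of these data known. The counts describe the lists and are not a test. NF-kB induces the listed feedback and adhesion genes together with the chemokines in many cell types. Of these, 3 of 12 tested were called lower and 0 higher in the paired TIM-1 comparison, with a median log2 fold change of -0.20. Over all tested genes, 1.79% were called lower and 3.22% higher. The adhesion genes ICAM1 and VCAM1 did not pass the low-count filter. NFKBIA, the inhibitor that holds NF-kB in the cytoplasm, had 66.6, 186 and 193 CPM in the TIM-1 libraries of replicates 1, 2 and 3, against 94.4, 299 and 281 CPM in the matching empty-vector libraries. With pairing NFKBIA had a log2 fold change of -0.58 (SE 0.06, edgeR adjusted p = 4.23e-09), called without each pair in turn and by DESeq2. BIRC3, an inhibitor of apoptosis and ubiquitin ligase, and TNFAIP3, which encodes A20, fell by 0.48 and 0.44 log2 units (edgeR adjusted p = 0.000275 and 0.00204). TNFAIP3 was lost without pair 2 (edgeR adjusted p = 0.0878) and BIRC3 by DESeq2 with the block (adjusted p = 0.114). In replicate 1, 9 of the 12 were lower and 1 higher, with a median of -1.21, beside 12% of all tested genes called lower and 11.6% higher.

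Of the IL-1 receptor to NF-kB signalling genes, 3 of 17 tested were called lower and 0 higher with TIM-1 in the paired fit (1.79% and 3.22% of all tested genes), with a median of -0.0072. They were the NF-kB subunit genes NFKB2 and RELB and the signalling gene IRAK2, which fell by 0.36, 0.42 and 0.37 log2 units (edgeR adjusted p = 0.000429, 0.000728 and 0.0111). NFKB2 and IRAK2 were lost without pair 2 (edgeR adjusted p = 0.0968 and 0.365) and RELB without pair 3 (0.0787). IRAK2 had an adjusted p of 0.149 in DESeq2 with the block. In replicate 1, 4 of the 17 were lower and 0 higher (12% and 11.6% of all tested genes), with a median of -0.11.

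Several receptors for these ligands were not detected. CXCR1, CCR2, CCR6 and IL1R2 had a count of 0 in each library. CXCR2 had 1, 0 and 0 counts in the TIM-1 libraries of replicates 1, 2 and 3, and 0 in each empty-vector library. Of 18 receptor genes 9 were tested. With TIM-1, 0 were called in either direction in the paired fit, beside 5.01% of all tested genes, with a median of 0.0047. The receptors of highest level were TNFRSF1A, a receptor for tumour necrosis factor, at 152 ± 13.9 CPM in TIM-1 cells and 154 ± 12.1 CPM in empty-vector cells (mean ± SD of 3 libraries each), and OSMR, the oncostatin M receptor. IL1R1, the signalling receptor for interleukin-1, named after its values were seen, had 6.81 ± 1.60 CPM in TIM-1 cells and 7.73 ± 1.14 CPM in empty-vector cells (mean ± SD of 3 libraries each). In replicate 1, OSMR was called higher, with a log2 difference of 0.50, and the shared receptor gene IL6ST, named after its values were seen, lower, with one of -0.31.

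Of 15 other chemokine genes 2 were tested, and 0 were called in either comparison. Over all tested genes, 5.01% were called in the paired TIM-1 fit and 23.6% in the replicate 1 fit. CXCL16, a membrane-bound chemokine, had 6.95 ± 0.859 CPM in TIM-1 cells and 6.39 ± 1.09 CPM with the empty vector, and CCL5, an attractant of T cells, had 1.68 ± 0.140 and 1.01 ± 0.330 CPM in the same order (mean ± SD of 3 libraries each). In replicate 1 these 2 genes had a median log2 difference of 0.08, beside -2.27 for the 6 tested members. Of the IL-1 family and its processing genes 6 of 14 were tested. With TIM-1, 0 were called in the paired fit, beside 5.01% of all tested genes. Their best expressed members were the protease gene CAPN1 and the pore-forming gasdermin gene GSDMD, with paired log2 fold changes of 0.04 and 0.18. In replicate 1, 3 of these 6 were called lower, where 12% of all tested genes were.

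Factors that control the decay of cytokine mRNAs were all tested, 13 of 13, with 2 called lower and 0 higher with TIM-1 in the paired fit (1.79% and 3.22% of all tested genes) and a median of -0.12. ZFP36L1, a relative of the decay factor tristetraprolin that binds the AU-rich letters shown above, had 156, 458 and 434 CPM in the TIM-1 libraries of replicates 1, 2 and 3, against 184, 517 and 544 CPM in the matching empty-vector libraries. It was lower in each pair (log2 fold change -0.25, SE 0.06, edgeR adjusted p = 0.00681). The call was lost without pair 2 (edgeR adjusted p = 0.0998) and without pair 3 (0.0538). ZC3H12C, a relative of the RNase regnase-1, fell by 0.36 log2 units (edgeR adjusted p = 0.0318), and was lost without pair 2 (0.395), without pair 3 (0.0838) and by DESeq2 with the block (0.316). In replicate 1, 3 of the 13 were lower, where 12% of all tested genes were, ZFP36L1 by 1.52 on the log2 scale.

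**Figure D5:**
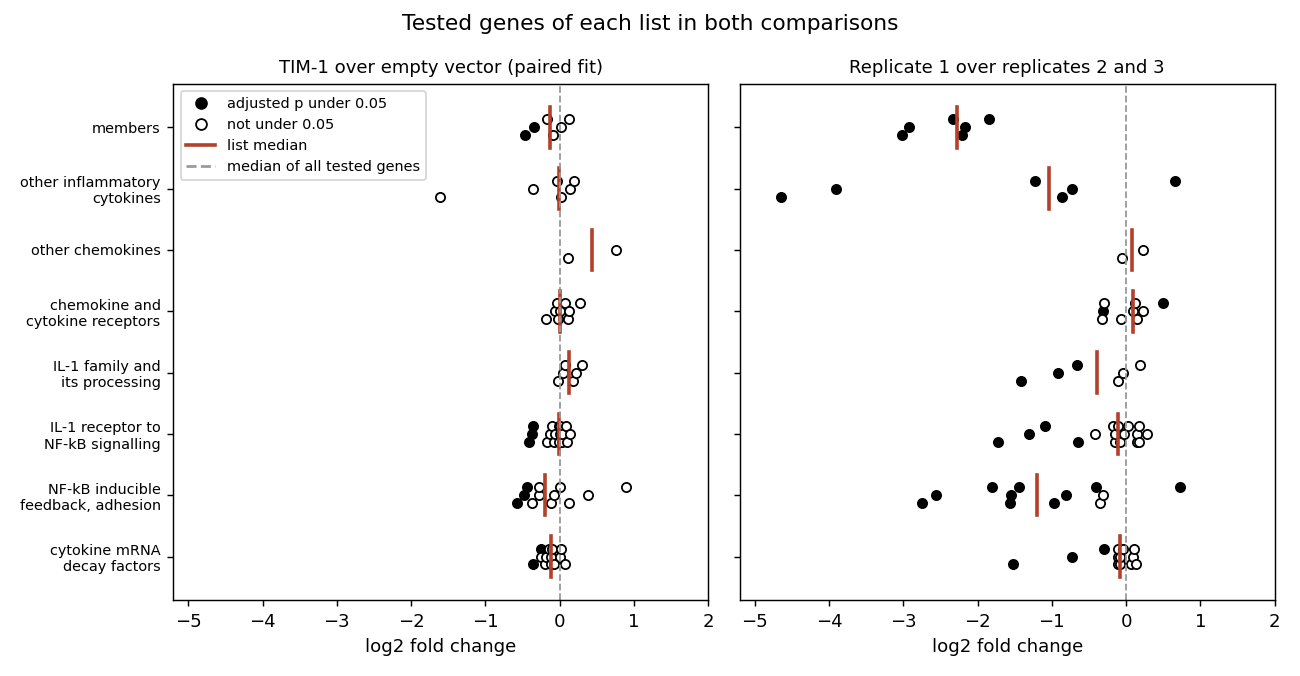
Log2 fold changes of the tested genes of each list, for TIM-1 over empty vector in the paired fit (left) and for replicate 1 over replicates 2 and 3 (right), filled where the edgeR adjusted p was under 0.05, with a red bar at the list median and a dashed line at the median of all tested genes. The 6 members lie between -1.85 and -3.02 on the right and between -0.47 and 0.12 on the left.

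The genes whose pattern over the 6 libraries was most like that of the 6 members were FOS, HERPUD1, TRIB1, MIS12, JUNB and SEC23B. Likeness was the Pearson correlation of log2(CPM + 1) with the mean standardized profile of the 6 members, and the top 6 of 11474 protein-coding genes had values of 0.997 to 1.00. The libraries fall into replicate 1 and the others, and the measure mostly reads that split, so no p is given. FOS, an AP-1 subunit, had 86.4, 288 and 291 CPM in the TIM-1 libraries of replicates 1, 2 and 3, against 85.1, 325 and 312 CPM in the matching empty-vector libraries. JUNB, another AP-1 subunit, had 52.4, 106 and 114 CPM in the TIM-1 libraries of replicates 1, 2 and 3, against 50.9, 123 and 122 CPM in the matching empty-vector libraries. Both were low in replicate 1 of both groups, with log2 differences of -1.82 and -1.17, and neither was called with TIM-1 in the paired fit (edgeR adjusted p = 0.466 and 0.485).

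Leucocyte and endothelial markers were close to 0. Of 10 leucocyte markers 7 had a count of 0 in each library, among them PTPRC, LYZ and CD3E, and the list summed to between 2.23 and 2.41 CPM in TIM-1 libraries and between 1.69 and 3.46 CPM in empty-vector libraries, mostly from ITGAM. The endothelial list summed to at most 0.276 CPM in TIM-1 libraries and 0.125 CPM in empty-vector libraries, and 0 of its 5 genes were tested. Of 6 fibroblast markers DCN had a count of 0 in each library and 2 were tested. Their sum was 9.34 to 15.9 CPM in TIM-1 cells and 5.67 to 9.46 CPM with the empty vector, and COL1A1 rose with TIM-1 by 0.90 log2 units (paired edgeR adjusted p = 0.000265) and was higher in replicate 1 by 0.83. Of 12 epithelial and urothelial markers 3 were tested, with KRT18 at 343 ± 62.8 CPM in TIM-1 cells and 409 ± 98.7 CPM in empty-vector cells (mean ± SD of 3 libraries each), while EPCAM and UPK3A had a count of 0 in each library. KRT18 fell by 0.24 log2 units in the paired fit (edgeR adjusted p = 0.00946, lost without pair 2 at 0.0632 and without pair 3 at 0.147). GATA3, a luminal transcription factor, averaged 0.801 ± 0.142 CPM in TIM-1 cells and 1.92 ± 0.690 CPM in empty-vector cells (mean ± SD of 3 libraries each), with a paired log2 fold change of -1.25 (edgeR adjusted p = 0.0457, lost without pair 2 at 0.319 and without pair 3 at 0.382). KRT8 stood at 45.8 ± 3.69 CPM in TIM-1 cells and 43.9 ± 1.82 CPM in empty-vector cells (mean ± SD of 3 libraries each). The part of these markers in the chemokine results was not tested.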

How the data were processed

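RNA from UMUC3 cells was sequenced in 6 libraries, 3 per vector, grouped by the treatment in the labels. The deposited table holds the authors' raw read counts per Ensembl gene. The submitters' processing notes name HISAT2 2.0.5, featureCounts 1.5.0-p3, DESeq2 1.16.1 and the build hg38. Annotation release, strandedness and the handling of multi-mapping reads were not given in the sources used here. Each of the 60605 rows carried an Ensembl gene identifier, 42158 of them with a symbol, and totals ran from 14312387 to 18605914 counts. Detection limits cover counting error only.

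The main test was edgeR's quasi-likelihood F test (version 4.0.16, R 4.3.3, robust, TMM factors), two-sided, with the group as the only term. It ran on the 14479 genes that filterByExpr kept at a minimum count of 10, with Benjamini-Hochberg adjustment over all of them and a threshold of 0.05. Each SE is the log2 fold change over the square root of F. Alternatives were a block by replicate number, RLE factors, no filter, DESeq2 1.42.0 and single libraries left out, and the fits were checked on simulated data. Library deviations from the group mean correlated at 0.64, 0.34 and 0.36 between equal numbers, all above 0.1, so these were taken as pairs. TIM-1 replicate 3 and empty-vector replicate 2 gave 0.35, above the 0.34 of the libraries numbered 2. TIM-1 replicate 2 and empty-vector replicate 3 gave 0.24, also above 0.1. The correlations set replicate 1 apart only, and the pairing of 2 with 2 and 3 with 3 rests on the numbers. With the block, 2 residual degrees of freedom remain.

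Symbols came from a table of Ensembl identifiers, and positions, exon lengths and transcripts from GENCODE 29 on GRCh38. Promoters are RefSeq's. From each context list the text names at most 3 genes called in the paired fit, or, with none called, the 2 of highest mean CPM. The members, lists and motifs were chosen with earlier results of these data known.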

Additional observations from a re-analysis of the deposited data

How the results depend on the processing

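Without pairing, 2 genes were called for TIM-1 against empty vector, and 72 without the low-count filter, 25 by DESeq2, 725 with the replicate block, 209 by DESeq2 with the replicate block and 510 with a block of replicate 1 against the others, while leaving out 1 library gave 1 to 9, the 9 without empty-vector replicate 1. Among the 6 tested members the count was 0 without pairing in each of these unpaired fits, 2 with the replicate block and with the block of replicate 1, and 1 by DESeq2 with the replicate block. Leaving out 1 pair with the block gave 209 to 838 genes (209 without pair 2 and 473 without pair 3) and 1 to 2 members.

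Leaving out 1 library of the unpaired fit gave log2 fold changes between -0.86 and 0.13 for CXCL1, -0.52 and 0.29 for CXCL3, -0.52 and 0.46 for CXCL8, -0.24 and 0.62 for CCL2, and -0.76 and 0.35 for CCL20, so these unpaired directions depend on single libraries, while CXCL2 stayed between -0.90 and -0.0040. CXCL1 turned without TIM-1 replicate 1 only. CCL20 turned to 0.018 with the replicate block, 0.87 by DESeq2 with the block and 0.0067 with the block of replicate 1. With the block and 1 pair left out, CCL20 ran from -0.54 to 0.62 and CCL2 from -0.062 to 0.22. The replicate block with RLE factors or without the low-count filter, chosen after the data were seen, left both member calls in place, and the block changed no other member call.

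For replicate 1 against replicates 2 and 3, 3413 genes were called, 2172 without the group term and 1378 to 4021 with 1 library left out (1378 without empty-vector and 1617 without TIM-1 replicate 1), and 5 to 6 members stayed called. For the interaction the count was 0, 4 without the filter, 2 by DESeq2 and 0 to 233 with 1 library of replicates 2 and 3 left out, the 233 without empty-vector replicate 2, with 0 to 1 members. The causes were not tested. Leaving out a replicate 1 library from the interaction gives no value. Low counts limit CXCL3 and CCL20, and 2 residual degrees of freedom limit the paired fit.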

Other observations

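Other inflammatory cytokine genes also differed in replicate 1. With TIM-1, 0 of the 6 tested were called in the paired fit, beside 5.01% of all tested genes. Of 6 tested genes of this list 5 were lower and 1 was higher in replicate 1, beside 12% of all tested genes called lower and 11.6% called higher, with a median log2 difference of -1.04. LIF, which encodes leukaemia inhibitory factor, had 41.0, 53.1 and 51.3 CPM in the TIM-1 libraries of replicates 1, 2 and 3, against 36.5, 78.8 and 78.3 CPM in the matching empty-vector libraries. With pairing LIF had a log2 fold change of -0.36 (SE 0.13, edgeR adjusted p = 0.139), and without pair 1 the edgeR adjusted p was 6.22e-06. CSF1, a growth factor of macrophages, had 18.8, 35.4 and 31.8 CPM in the TIM-1 libraries of replicates 1, 2 and 3, against 18.9, 31.2 and 38.5 CPM in the matching empty-vector libraries, and was lower in replicate 1 by a log2 difference of -0.86 (edgeR adjusted p = 3.24e-06). IL11, a relative of interleukin-6 named after its values were seen, was the gene that was higher, with a log2 difference of 0.65 (edgeR adjusted p = 0.00253).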
